A study of Mus musculus with 8 samples.

Results

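The step from 8 h to 24 h after neocarzinostatin (NCS) was followed in fibroblasts of mouse embryos (MEFs), cultured cells of connective tissue, with and without the kinase gene Atm. The 4 arrays of the step, of 8 in the series, were Atm-/- cells at 24 h, Atm+/+ cells at 24 h, Atm-/- cells at 8 h and Atm+/+ cells at 8 h, with 1 array each. The rule that picks them uses their labels and no measured value, and each 24 h array was set against the 8 h array of its own genotype. All 4 cultures came from littermate MEFs kept in medium with 15% fetal calf serum and given NCS, whose dose the labels do not state. The other 4 arrays, at 0 h (untreated) and 4 h, gave a baseline for levels and added to the estimate of the spread. The series asks how long noncoding RNAs behave in the response to DNA damage. The labels do not give the number of embryos or lines. With 1 array per genotype and time, the genotypes stand in for replicates of a time point. So p-values measure the spread left after terms for time and genotype, which may be technical. That spread includes any difference in time course between the genotypes. No untreated array at 8 h or 24 h was analysed here, and time point follows array position on both slides, so NCS, time in culture and array position cannot be told apart.

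NCS cuts both DNA strands much as ionizing radiation does. Cells answer such breaks through ATM, the kinase that signals to p53 and the cell cycle checkpoints, and also through NF-kB, the transcription factor that switches on cytokines and chemokines. NF-kB responses are usually transient, since NF-kB also switches on its own inhibitors. Interferon-stimulated genes, matrix genes and cell cycle genes are known to follow with other timing.

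Levels are log2 processed intensities relative to the array's 75th percentile, steps are the level at 24 h minus that at 8 h, and errors are standard errors (SE) of the limma fit. A probe was called at a limma adjusted p under 0.05. Between 57.3% and 61.4% of the spots of an array were well above background. The Atm+/+ 24 h array stood apart: the scanner software marked 1545 of its spots as outliers, against 44 to 203 on the other 7 arrays. A probe's value was left out where all its spots on an array were marked in this way. Genotype coincides with slide. Atm itself read -3.15 at 24 h and -3.67 at 8 h in Atm-/- cells, and -2.43 at 24 h and -1.95 at 8 h in Atm+/+ cells, with a step of 0.02 ± 0.25. Which part of Atm is deleted is not stated in the labels, so this probe does not check the genotype. All 11 fibroblast markers were kept, and the summed scaled signal of the 10 with a value on every array was 737 in Atm-/- and 894 in Atm+/+ cells at 24 h, against 716 in Atm-/- and 846 in Atm+/+ cells at 8 h. In these whole cultures fewer cells of a type and less RNA per cell cannot be told apart.

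Of 23134 probes tested, 6 were called (0.0259%), 4 lower (0.0173%) and 2 higher (0.00865%) at 24 h. The 4 lower ones were the macrophage metabolic enzyme gene Acod1, the cytokine gene Il1a and the receptor genes Gpr84 and Hcar2. The 2 higher ones were Palmd, which encodes palmdelphin, and the antisense noncoding transcript uc008wdi. An unadjusted limma p under 0.05 was reached by 4817 probes (20.8%), 2797 lower and 2020 higher. By size alone, 84 of the 21706 probes with a value on all 4 arrays read at least 2-fold lower in both genotypes (0.387%) and 61 at least 2-fold higher (0.281%). The calls depended on the spread from all 8 arrays: the 4 arrays of the step alone, with 1 residual degree of freedom, gave 0 calls, with 1957 probes at an unadjusted p under 0.05. Leaving out 1 array at a time gave 0 or 1 calls, and 0 of the 6 probes named here were called in any of those 8 fits.

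**Figure D1:**
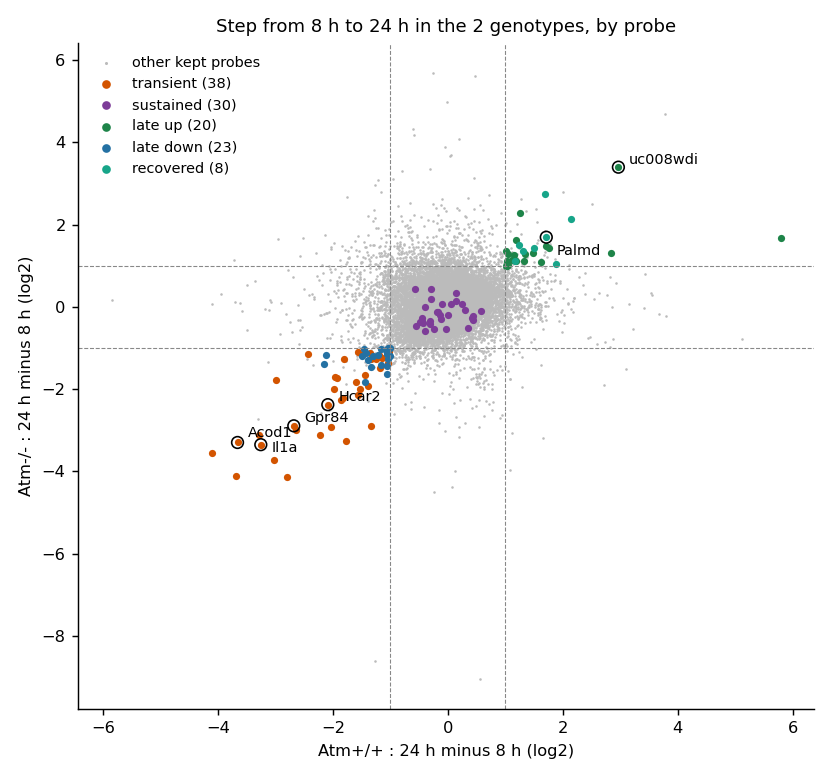
Step from 8 h to 24 h of each kept probe, log2, in Atm-/- cells (vertical axis) and in Atm+/+ cells (horizontal axis), with 1 point per probe and dashed lines at 2-fold. Coloured points are the time-course classes with the number of probes in each, circles mark the 6 called probes, and the 4 called lower ones lie among the 38 transient probes.

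Acod1 (chromosome 14), whose enzyme makes the antimicrobial metabolite itaconate, had the largest called fall. It read -3.80 in Atm-/- and -3.16 in Atm+/+ cells at 24 h, against -0.50 in Atm-/- and 0.49 in Atm+/+ cells at 8 h, a step of -3.48 ± 0.20 (2 arrays against 2, limma adjusted p = 0.0346). Both 24 h arrays lay below both 8 h arrays by over 2 log2 units, and both were still above their 0 h levels of -6.01 in Atm-/- and -5.36 in Atm+/+ cells. Il1a (chromosome 2) encodes interleukin-1 alpha, an alarm cytokine. It read -4.02 in Atm-/- and -3.64 in Atm+/+ cells at 24 h, against -0.67 in Atm-/- and -0.38 in Atm+/+ cells at 8 h. Its step was -3.30 ± 0.15 (limma adjusted p = 0.0231), of nearly equal size in Atm-/- (-3.35) and in Atm+/+ cells (-3.25).

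Gpr84 (chromosome 15), a receptor for medium-chain fatty acids that is induced in activated myeloid cells, had the smallest adjusted p among the falls. It read -1.72 in Atm-/- and -0.62 in Atm+/+ cells at 24 h, against 1.17 in Atm-/- and 2.06 in Atm+/+ cells at 8 h, a step of -2.79 ± 0.11 (limma adjusted p = 0.0200). Hcar2 (chromosome 5), the niacin and ketone body receptor, read -5.04 in Atm-/- and -3.96 in Atm+/+ cells at 24 h, against -2.67 in Atm-/- and -1.87 in Atm+/+ cells at 8 h. Its step was -2.23 ± 0.13 (limma adjusted p = 0.0346). For both receptors the 24 h and 8 h readings did not overlap, and Atm-/- cells read lower than Atm+/+ cells at both times.

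Palmd (chromosome 3) went the other way. It read -2.29 in Atm-/- and -2.20 in Atm+/+ cells at 24 h, against -3.98 in Atm-/- and -3.91 in Atm+/+ cells at 8 h, a step of 1.71 ± 0.09 (limma adjusted p = 0.0340). The gene had read -2.97 in Atm-/- and -2.90 in Atm+/+ cells at 0 h, so its 24 h level stood above the untreated one after a low point at 8 h. The noncoding transcript uc008wdi was not well above background on the 0 h, 4 h and 8 h arrays of either genotype, where it read between -8.23 and -7.86. At 24 h it read -4.79 in Atm-/- and -4.89 in Atm+/+ cells, well above background on both arrays, which makes it at least 2.10-fold higher at 24 h (fitted step 3.18 ± 0.13 between means of -4.84 at 24 h and -8.02 at 8 h, limma adjusted p = 0.0200). The filter kept uc008wdi only through its 2 arrays at 24 h, where it is high. Its call and p-value are therefore no independent support for the rise, and its SE rests largely on background readings.

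**Figure D2:**
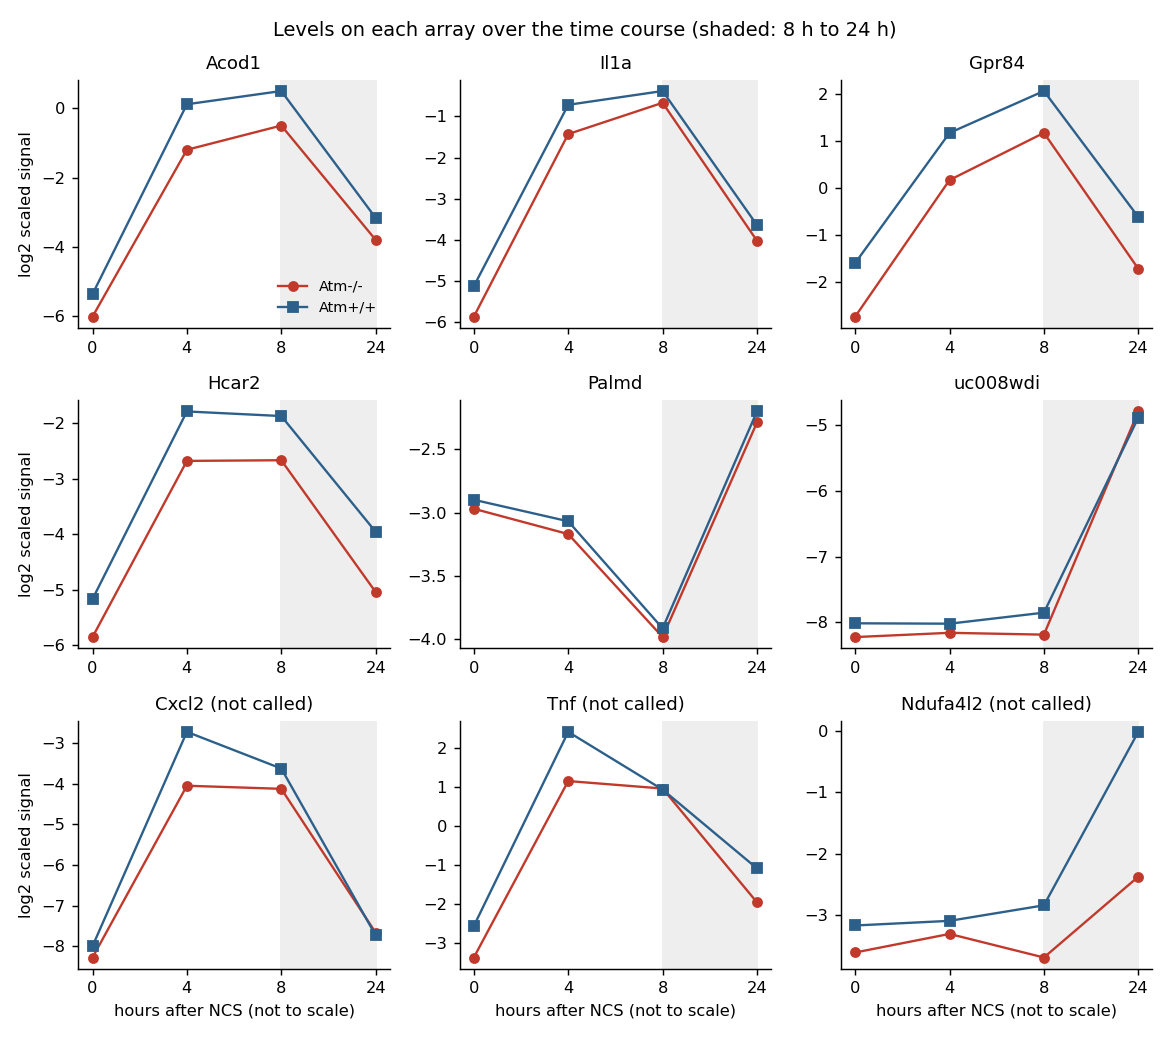
Level of the 6 called probes and of 3 probes that were not called at 0, 4, 8 and 24 h, in log2 units relative to the array's 75th percentile, with 1 point per array, circles for Atm-/- and squares for Atm+/+ cells and the step shaded. Acod1, Il1a, Gpr84, Hcar2, Cxcl2 and Tnf read high at 4 h and 8 h and lower at 24 h, and uc008wdi reads high only at 24 h.

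The 250 bases before the start of genes of the step are shown because they allow the letters of binding motifs to be set beside the changes. They come from RefSeq on build GRCm38.p6, whose table matched 3 of the 5 called coding genes, and Cxcl2 and Nfkbia are added as the chemokine with the largest estimate in its list and the gene of the main NF-kB inhibitor. The windows are chr2:129309973-129310222 (minus strand), chr14:103046762-103047011 (plus), chr15:103310439-103310688 (minus), chr5:90903649-90903898 (plus) and chr12:55492648-55492897 (minus). Capitals mark matches on either strand, with N for any base. The patterns are a loose kappaB type named after NF-kB (GGGANTNNC), the AP-1 motif (TGANTCA), the interferon-response type (GAAANNGAA) and the cell cycle element called CHR (TTTGAA).
Il1a: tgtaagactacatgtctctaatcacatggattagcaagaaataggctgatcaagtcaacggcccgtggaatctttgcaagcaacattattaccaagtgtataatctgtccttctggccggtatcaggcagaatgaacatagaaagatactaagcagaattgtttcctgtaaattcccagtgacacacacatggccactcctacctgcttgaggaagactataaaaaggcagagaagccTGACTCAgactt
Acod1: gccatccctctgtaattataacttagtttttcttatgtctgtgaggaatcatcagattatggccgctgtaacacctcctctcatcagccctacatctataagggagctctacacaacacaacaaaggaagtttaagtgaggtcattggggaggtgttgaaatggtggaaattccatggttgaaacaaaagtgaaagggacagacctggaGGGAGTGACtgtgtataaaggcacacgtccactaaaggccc
Gpr84: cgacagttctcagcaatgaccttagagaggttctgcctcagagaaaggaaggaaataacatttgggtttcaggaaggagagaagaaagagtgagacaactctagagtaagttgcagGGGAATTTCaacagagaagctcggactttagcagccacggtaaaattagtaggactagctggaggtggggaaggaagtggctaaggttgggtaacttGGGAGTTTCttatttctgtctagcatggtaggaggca
Cxcl2: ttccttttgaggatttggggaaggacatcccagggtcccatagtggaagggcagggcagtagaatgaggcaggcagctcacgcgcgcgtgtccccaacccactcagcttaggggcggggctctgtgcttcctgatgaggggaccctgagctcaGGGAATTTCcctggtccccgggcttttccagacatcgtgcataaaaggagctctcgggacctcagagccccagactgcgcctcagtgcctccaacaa
Nfkbia: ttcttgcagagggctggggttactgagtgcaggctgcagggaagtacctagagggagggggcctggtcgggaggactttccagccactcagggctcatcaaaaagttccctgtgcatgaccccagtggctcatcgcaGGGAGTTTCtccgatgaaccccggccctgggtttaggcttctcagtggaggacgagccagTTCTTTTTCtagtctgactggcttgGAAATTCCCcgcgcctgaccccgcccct
The Cxcl2 window held 1 kappaB-type match, the Gpr84 window 2 and the Acod1 window 1. In the Nfkbia window 1 match stood on the printed strand and 1 on the other, beside 1 interferon-response match on the other strand. Il1a held 1 AP-1 match next to its start and no kappaB-type letters. The kappaB-type letters stood in 11.7% and the AP-1 letters in 6.75% of the 32851 windows of the table. Of the genes of the NF-kB list below, 18 had a window and 10 of these held the kappaB-type letters (55.6%), beside 13.3% of the 27025 genes of the table. The share was 25.0% in chemokines and 22.2% in interleukins and growth factors. Lists of other themes held 24.1% (DNA repair and checkpoint), 22.9% (G2 and mitosis) and 6.67% (ribosomal proteins). Letters of different motifs can overlap, but they do not in the windows printed. A match says only that the letters are there, not that NF-kB or another factor binds them, and other forms of such sites are not marked. The motif letters were chosen after windows had been seen, so the shares are descriptions and test nothing.

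Among interleukins and growth factors 1 of 26 kept genes was called, Il1a. In all 14 of the 26, Il1a among them, had an unadjusted limma p under 0.05 with a lower level and 3 with a higher one, where 13.2% and 8.77% of all 13841 genes tested did so. These 2 shares are the background for such counts in every other list as well. The median step of the list was -0.70, against -0.04 over all genes. The lists and their members were chosen with earlier results of these data known. Their counts and medians, here and below, are therefore descriptions and test nothing. Il1b, the partner cytokine of Il1a, read -3.97 in Atm-/- and -3.57 in Atm+/+ cells at 24 h, against 0.43 in Atm+/+ cells at 8 h, its Atm-/- 8 h spot being marked as an outlier. Its fitted step was -4.06 ± 0.27 (limma adjusted p = 0.0780), the largest estimate of the list, but it was not called. Tnf, the gene of tumour necrosis factor, read -1.97 in Atm-/- and -1.10 in Atm+/+ cells at 24 h, against 0.95 in Atm-/- and 0.93 in Atm+/+ cells at 8 h. The colony-stimulating factor gene Csf3 had a step of -1.83 ± 0.17. Its relative Csf2 was not well above background at 24 h and was at least 2.88-fold lower (fitted step -2.02 ± 0.16). Members with a positive step included Il33 (0.58), the inflammasome cytokine Il18 (0.56) and the interleukin-1 antagonist Il1rn (0.51), none of them called.

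Chemokines, the proteins that attract leukocytes, were split between lower and higher readings. Of 23 kept genes 0 were called, 12 had an unadjusted p under 0.05 lower at 24 h and 4 higher. The median step was -0.56 in Atm-/- and -0.41 in Atm+/+ cells, and the median of the fitted steps -0.81. Cxcl2, which attracts neutrophils, read -7.66 in Atm-/- and -7.73 in Atm+/+ cells at 24 h, not well above background, against -4.12 in Atm-/- and -3.63 in Atm+/+ cells at 8 h. It was at least 4.00-fold lower (fitted step -3.82 ± 0.33, limma adjusted p = 0.0780). Ccl4 read -1.10 in Atm-/- and 0.38 in Atm+/+ cells at 24 h, against 2.15 in Atm-/- and 2.16 in Atm+/+ cells at 8 h. Ccl3 had a value for Atm-/- cells alone at 24 h (-1.47) and 8 h (2.17), both Atm+/+ spots being marked as outliers. Against these, the eosinophil and monocyte attractants Ccl11 (1.61 ± 0.30), Ccl12 (1.45 ± 0.44) and Ccl8 (1.22 ± 0.34) had positive steps. Ccl11 was well above background on only 1 of the 2 arrays at 8 h. Without the Atm+/+ 24 h array the step was 0.756 for Ccl12 and 0.676 for Ccl8. Ccl12 read -1.89 in Atm-/- and 1.53 in Atm+/+ cells at 24 h, against -2.91 in Atm-/- and -0.35 in Atm+/+ cells at 8 h, higher at 24 h in each genotype.

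The genes of NF-kB subunits, inhibitors and feedback read lower at 24 h as well. Of 22 kept members 0 were called, 16 had an unadjusted p under 0.05 lower and 0 higher, and 17 of the 21 with a value on all 4 arrays were lower in both genotypes. Over all genes 4501 of 12862 were lower in both and 3195 higher, the background for this count and those of the other lists. Since the list was chosen with earlier results known, the comparison is a description. The median step was -0.80 in Atm-/- and -0.58 in Atm+/+ cells. Traf1, an adaptor of TNF receptors, read -3.89 in Atm-/- and -3.67 in Atm+/+ cells at 24 h, against -1.90 in Atm-/- and -1.69 in Atm+/+ cells at 8 h. The inhibitor gene Nfkbie had a step of -1.55 ± 0.19, the subunit gene Nfkb2 one of -1.23 ± 0.11 and Relb one of -1.16 ± 0.18. Nfkbia, the inhibitor whose window is printed above, had a step of -1.06 ± 0.21, and the deubiquitinase gene Tnfaip3 one of -0.96 ± 0.27. The subunit gene Rela read within 0.33 of its 8 h level in both genotypes, with a step of -0.33 ± 0.12.

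Inflammatory effectors and acute-phase genes were mixed, with 1 of 29 called, Acod1, and a median step of -0.49. Clec4e, a lectin that senses mycobacteria and dead cells, read -6.09 in Atm-/- and -4.07 in Atm+/+ cells at 24 h, against -1.96 in Atm-/- and -1.28 in Atm+/+ cells at 8 h (step -3.46 ± 0.51, limma adjusted p = 0.0882). The nitric oxide synthase gene Nos2 (-0.90 ± 0.25) and the Toll-like receptor gene Tlr2 (-0.76 ± 0.18) had smaller steps. The secreted iron-trapping protein gene Lcn2 read -0.92 in Atm-/- and -1.51 in Atm+/+ cells at 24 h, against -1.89 in Atm-/- and -1.84 in Atm+/+ cells at 8 h. The complement genes C3 (0.66 ± 0.24) and C1s1 (0.98 ± 0.27) also had positive steps, and none of these 3 was called.

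Markers of macrophages and blood cells mostly read higher at 24 h, where the cytokines read lower. Of the 14 listed, 12 were kept, 9 had an unadjusted p under 0.05 higher at 24 h and 2 lower, 0 were called, and the median step was 0.53. The summed scaled signal of the 10 markers with a value on every array was 22.1 in Atm-/- and 59.4 in Atm+/+ cells at 24 h, against 20 in Atm-/- and 47.95 in Atm+/+ cells at 8 h. Itgam, the CD11b integrin chain, read -2.43 in Atm-/- and -1.41 in Atm+/+ cells at 24 h, against -3.76 in Atm-/- and -1.91 in Atm+/+ cells at 8 h. The Fc receptor gene Fcgr1 was not well above background at 8 h and at least 2.56-fold higher at 24 h (fitted step 2.397 ± 0.22, limma adjusted p = 0.0780). Fcgr1 passed the filter only with its 24 h arrays counted, so this rise is a description. Cd14, the co-receptor for bacterial lipopolysaccharide, had the opposite step of -1.27 ± 0.23. Ptprc, the leukocyte marker CD45, was not well above background on any of the 8 arrays, and Cd68 had no kept probe. The part of these cells in the cytokine, chemokine and interferon results was not tested.

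The probes raised early were examined on arrays that had not chosen them. Of the 79 probes at least 2-fold higher at 4 h than at 0 h in both genotypes, 70 had a value on all 4 arrays of the step. At 24 h 29 of them (41.4%) were at least 2-fold lower than at 8 h in both genotypes and 0 at least 2-fold higher, against 0.387% and 0.281% of all probes. In all 54 of the 70 were lower in both genotypes and 6 higher, beside 7164 and 5554 of all 21706 probes. Their median step was -1.16 in Atm-/- and -0.91 in Atm+/+ cells. Relative to 0 h the median was 1.01 in Atm-/- and 1.16 in Atm+/+ cells at 24 h, against 2.16 in Atm-/- and 2.23 in Atm+/+ cells at 8 h. At 24 h 32 of the 70 were at least 2-fold above 0 h in both genotypes and 11 within 1.5-fold of it. These distances from 0 h share the 0 h arrays with the choice of the probes and are a description. With Atm-/- arrays alone 54 of 276 such probes were 2-fold lower (19.6%), and with Atm+/+ arrays alone 56 of 250 (22.4%), where 1.78% and 2.57% of all probes were. Of the 17 probes at least 2-fold lower at 4 h, 12 read higher at 24 h than at 8 h in both genotypes.

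**Figure D3:**
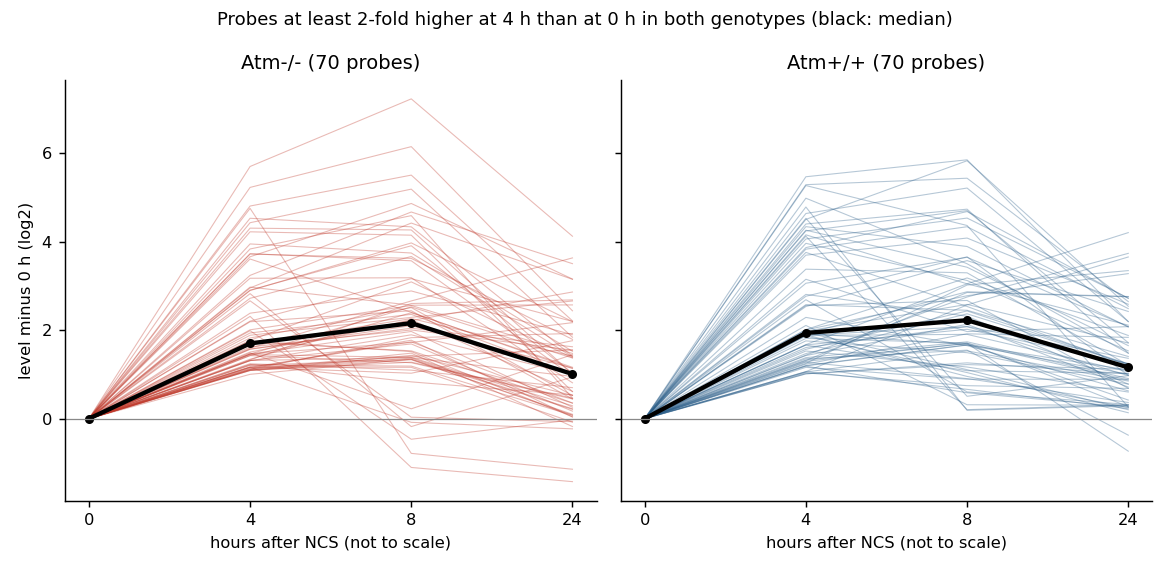
Level minus 0 h, log2, of the 70 probes at least 2-fold higher at 4 h than at 0 h in both genotypes, in Atm-/- cells (left) and Atm+/+ cells (right), with 1 thin line per probe and the median in black. The median stands at 2.16 and 2.23 at 8 h and at 1.01 and 1.16 at 24 h in Atm-/- and in Atm+/+ cells, above 0 in both.

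Among these early probes Acod1, the noncoding AK036493 and Il1a had the largest steps of those measured on all 4 arrays, Cxcl2 having a bound only and Clec4e being well above background on 1 of the 2 arrays at 24 h. AK036493, which the deposited table types as sense-overlapping, read -3.59 in Atm-/- and -1.89 in Atm+/+ cells at 24 h, against 0.13 in Atm-/- and 1.13 in Atm+/+ cells at 8 h. At the other end Hp, the haemoglobin-binding acute-phase protein gene, read -2.50 in Atm-/- and -1.41 in Atm+/+ cells at 24 h, against -2.88 in Atm-/- and -2.40 in Atm+/+ cells at 8 h. Lcn2, the interferon-induced GTPase gene Gbp6 (step 0.67 ± 0.46), the metalloreductase gene Steap4 (0.58 ± 0.66) and the noncoding uc009heo (0.62 ± 0.61), which was dim at both 8 h and 24 h, also had positive steps. Steap4 had a step of 0.01 in Atm-/- and 1.16 in Atm+/+ cells, so its mean rests on Atm+/+, and without the Atm+/+ 24 h array its step was -0.37.

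The difference of 8 h from 0 h and the step share the 8 h arrays, so the following classes are descriptions with no test. In both genotypes 38 probes were transient, at least 2-fold up from 0 h to 8 h and 2-fold down from 8 h to 24 h (0.175% of 21706), and 11 of them were noncoding. Far2, an enzyme gene that reduces fatty acids to alcohols, was in this class. It read -8.23 in Atm-/- and -7.72 in Atm+/+ cells at 24 h, not well above background, against -4.12 in Atm-/- and -4.03 in Atm+/+ cells at 8 h, and was at least 3.495-fold lower (limma adjusted p = 0.0785). Far2 passed the filter only through its 2 arrays at 8 h, where it is high, so its fall and p-value are a description. Some other members of this class were kept in the same way. Sprr2d, of the cornified envelope proteins of skin, read -2.97 in Atm-/- and -4.22 in Atm+/+ cells at 24 h, against 0.13 in Atm-/- and -0.93 in Atm+/+ cells at 8 h. Its relatives Sprr2e and Sprr2g were transient as well, and probes of such close copies may share signal. The inflammasome gene Nlrp3 (-1.27 in Atm-/-, -1.33 in Atm+/+) and the peptidoglycan sensor gene Nod2 (-1.996 in Atm-/-, -1.53 in Atm+/+) completed the sensors in this class.

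Another 30 probes were sustained, at least 2-fold up at 8 h and within 1.5-fold of that level at 24 h. Marco, a scavenger receptor of macrophages, read 2.32 in Atm-/- and 2.53 in Atm+/+ cells at 24 h, against 2.24 in Atm-/- and 2.63 in Atm+/+ cells at 8 h, a step of -0.01 ± 0.11. At 0 h it had read -0.36 in Atm-/- and -0.22 in Atm+/+ cells. Ccl5, a T cell chemokine gene, had a step of -0.49 ± 0.10, the decoy receptor gene Il13ra2 one of 0.15 ± 0.14 and Prnd, which encodes the prion-like protein doppel, one of -0.41 ± 0.10. The noncoding uc008cke had a step of 0.16 ± 0.18. None of these 5 passed the test, and a p that misses the threshold does not show that a level stayed the same.

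Genes of G2 and mitosis, the machinery of cell division, read lower at 24 h in most cases. Of 41 kept members 0 were called at an adjusted p under 0.05, but 18 had an adjusted p under 0.1, 33 had an unadjusted p under 0.05 lower and 0 higher, and 36 of the 39 with a value on all 4 arrays were lower in both genotypes and 0 higher. The median step was -0.71 in Atm-/- and -0.87 in Atm+/+ cells. This list too was chosen with earlier results known, so its counts are descriptions. Set against 0 h the median was -0.75 in Atm-/- and -1.06 in Atm+/+ cells at 24 h, against -0.07 in Atm-/- and -0.19 in Atm+/+ cells at 8 h, so nearly all of the difference appeared after 8 h. Espl1, the gene of separase, which cuts the ring that holds sister chromatids together, read 0.36 in Atm-/- and 0.51 in Atm+/+ cells at 24 h, against 1.36 in Atm-/- and 1.55 in Atm+/+ cells at 8 h (step -1.02 ± 0.11, limma adjusted p = 0.0785). Kif23, a motor of cell division, read 1.44 in Atm-/- and 1.56 in Atm+/+ cells at 24 h, against 2.45 in Atm-/- and 2.57 in Atm+/+ cells at 8 h. The chromosomal passenger gene Cdca8 had a step of -0.99 ± 0.10, the mitotic kinase gene Plk1 one of -0.96 ± 0.11 and the anaphase activator gene Cdc20 one of -0.97 ± 0.15. The checkpoint gene Mad2l1 (-0.13 ± 0.10) stood at the other end.

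The 250 bases before Espl1 (chr15:102296043-102296292, plus strand, RefSeq, GRCm38.p6) are shown as an example with 1 match to the CHR letters close to the start. The window of Plk1 held none.
Espl1: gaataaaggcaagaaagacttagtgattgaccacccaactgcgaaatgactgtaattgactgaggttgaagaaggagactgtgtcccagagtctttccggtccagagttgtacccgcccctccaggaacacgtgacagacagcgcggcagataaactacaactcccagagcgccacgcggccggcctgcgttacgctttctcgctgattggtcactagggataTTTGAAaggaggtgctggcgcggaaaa
The CHR letters stood in 12 of the 35 G2 and mitosis genes with a window (34.3%) and in 18 of the 43 core histone genes with one (41.9%), beside 18.3% of all genes of the table. As above, the letters were chosen after windows had been seen, so these shares are descriptions.

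Genes of S phase and DNA replication showed the same direction with smaller steps. Of 45 kept members 0 were called, 25 had an unadjusted p under 0.05 lower and 0 higher, and the median step was -0.52 in Atm-/- and -0.47 in Atm+/+ cells. Relative to 0 h the median was -0.7 in Atm-/- and -0.925 in Atm+/+ cells at 24 h. At 8 h it was already -0.14 in Atm-/- and -0.474 in Atm+/+ cells, so part of the fall came before 8 h, more so in Atm+/+ cells. Tk1, thymidine kinase, read 1.42 in Atm-/- and 1.74 in Atm+/+ cells at 24 h, against 2.54 in Atm-/- and 2.37 in Atm+/+ cells at 8 h. The replication licensing genes Mcm10 (-0.80 ± 0.13) and Cdt1 (-0.77 ± 0.15) had similar steps. DNA repair and checkpoint genes had a median of -0.27, with 14 of 35 tested at an unadjusted p under 0.05 lower, 0 higher and 0 called. The repair gene Brca1, which acts in the mending of DNA breaks, had a step of -0.53 ± 0.12.

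Targets of p53 had no common direction. Of 45 kept members 0 were called, 5 had an unadjusted p under 0.05 lower and 2 higher, 11 of 39 were lower in both genotypes and 6 higher, and the median step was -0.01. The ubiquitin ligase gene Fbxw7 had a step of -0.66 ± 0.12. Trp53inp1, a stress gene, read 3.86 in Atm+/+ cells at 24 h and 3.17 at 8 h, its Atm-/- spots being marked as outliers at both times. The sign of this median changed in 3 of 17 alternative settings, so no direction is given for the list.

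Interferon-stimulated genes, which answer viral nucleic acids, mostly read higher at 24 h. Of 36 kept members 0 were called, 17 had an unadjusted p under 0.05 higher and 0 lower, and 23 of the 34 with a value on all 4 arrays were higher in both genotypes and 1 lower. The median step was 0.31 in Atm-/- and 0.50 in Atm+/+ cells. As with the other lists, members were chosen with earlier results known, so these counts are descriptions. Zbp1, a sensor of left-handed nucleic acid, read -3.98 in Atm-/- and -1.96 in Atm+/+ cells at 24 h, against -5.02 in Atm-/- and -3.10 in Atm+/+ cells at 8 h (step 1.09 ± 0.11, limma adjusted p = 0.0780). Ifit1, which binds viral RNA caps, read -1.18 in Atm-/- and 1.12 in Atm+/+ cells at 24 h, against -1.72 in Atm-/- and -0.21 in Atm+/+ cells at 8 h. Oasl2 had a step of 0.90 ± 0.10 and Ifit3 one of 1.12 ± 0.26, and Atm-/- cells read lower than Atm+/+ cells at both times for these 4 genes. Rsad2, the antiviral gene viperin, opposed the list in Atm-/- cells, with -3.02 at 24 h and -1.31 at 8 h, beside -0.02 at 24 h and -0.52 at 8 h in Atm+/+ cells.

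The 250 bases before Ifit1 (chr19:34640639-34640888, plus strand, RefSeq, GRCm38.p6) are shown because they hold 3 matches to the interferon-response letters, all on the other strand, and 2 of these overlap each other.
Ifit1: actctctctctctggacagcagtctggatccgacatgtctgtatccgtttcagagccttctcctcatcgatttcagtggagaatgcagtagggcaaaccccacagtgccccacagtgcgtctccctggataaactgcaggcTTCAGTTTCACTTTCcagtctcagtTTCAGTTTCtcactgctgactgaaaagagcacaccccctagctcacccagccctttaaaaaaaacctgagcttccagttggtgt
These letters stood in 13 of the 27 interferon-stimulated genes with a window (48.1%), beside 8.18% of all genes of the table. They too were chosen after windows had been seen, so this share is a description.

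**Figure D4:**
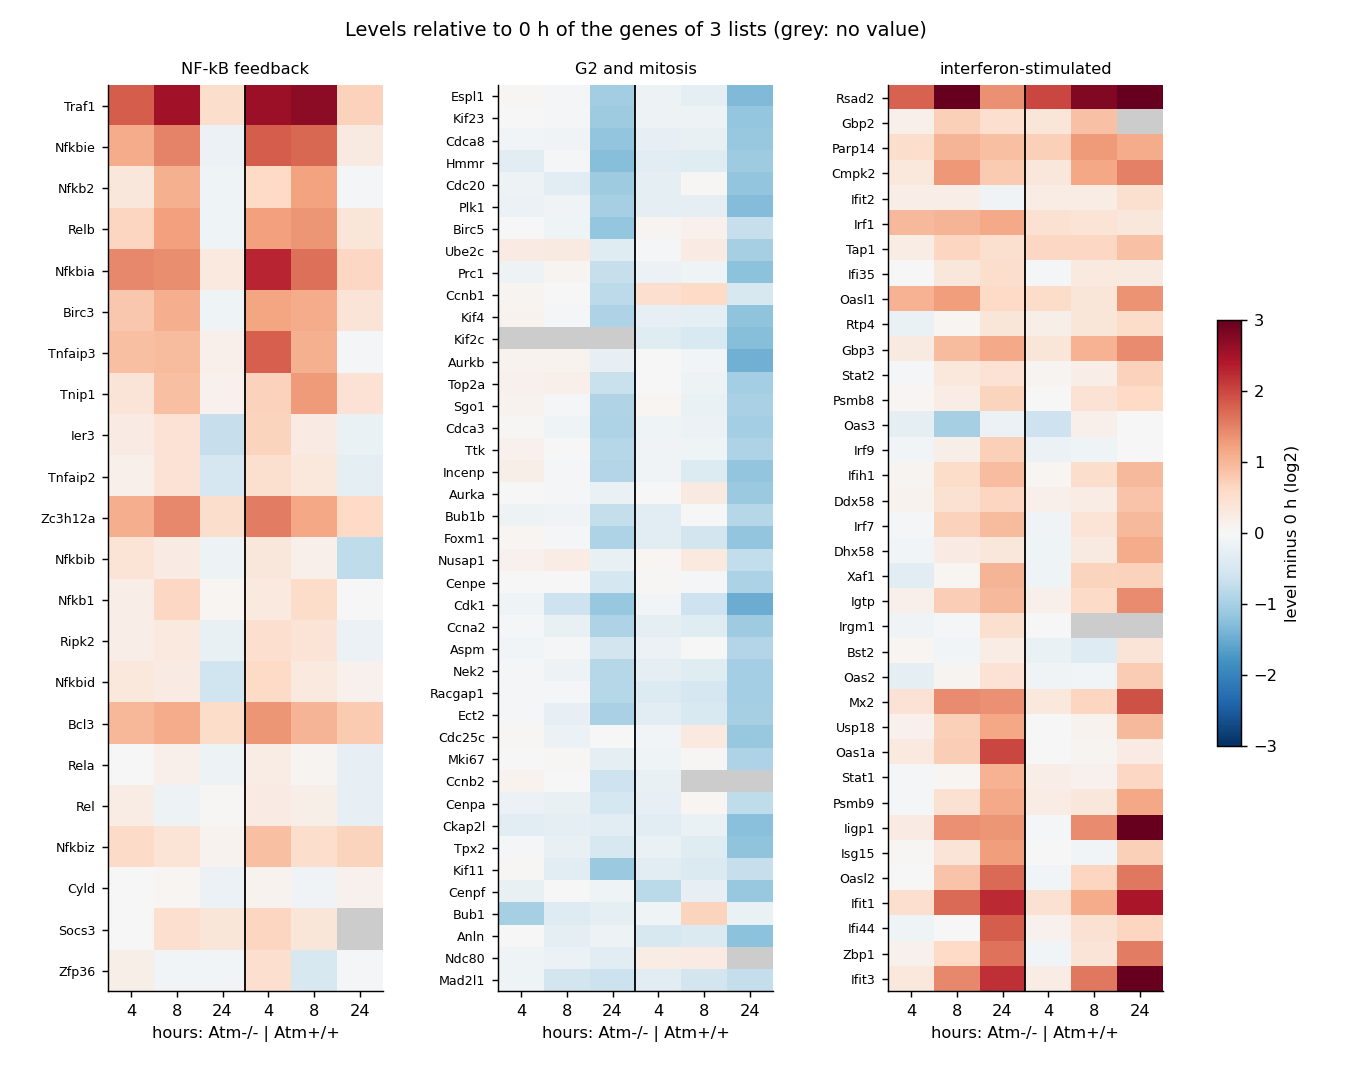
Level minus 0 h, log2, of the members of 3 lists at 4, 8 and 24 h, for Atm-/- (left side of each panel) and Atm+/+ cells (right side), with genes ordered by their fitted step and grey for values left out. NF-kB feedback genes are high at 8 h and paler at 24 h, G2 and mitosis genes are low only at 24 h, and most interferon-stimulated genes are highest at 24 h.

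Genes of the matrix and the fibroblast state included several with higher 24 h readings. Of 40 collagen and matrix genes tested 0 were called, 7 had an unadjusted p under 0.05 higher and 2 lower, and the median step was 0.11. Over all genes tested 8.77% were higher and 13.2% lower at that limma p. Ogn, the matrix proteoglycan osteoglycin, read 1.997 in Atm-/- and 2.26 in Atm+/+ cells at 24 h, against 0.85 in Atm-/- and 1.14 in Atm+/+ cells at 8 h (step 1.13 ± 0.11, limma adjusted p = 0.0780). The fibrillar collagen gene Col3a1 had a step of 0.70 ± 0.10. The elastin gene Eln read -1.05 in Atm-/- cells at 24 h and -2.24 at 8 h, its Atm+/+ 24 h spot being marked as an outlier. The fibroblast receptor gene Pdgfra had a step of 0.76 ± 0.16.

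In both genotypes 20 probes were late up, within 1.5-fold of 0 h at 8 h and at least 2-fold higher at 24 h, and 2 of them were noncoding. Apart from uc008wdi none was called. Ndufa4l2, a mitochondrial gene known as a target of the hypoxia response, read -2.38 in Atm-/- and -0.01 in Atm+/+ cells at 24 h, against -3.70 in Atm-/- and -2.85 in Atm+/+ cells at 8 h (step 2.08 ± 0.53). Sult1e1, the oestrogen sulfotransferase, read -3.36 in Atm-/- and -4.36 in Atm+/+ cells at 24 h, against -4.79 in Atm-/- and -6.13 in Atm+/+ cells at 8 h. Ifitm6, of the interferon-induced transmembrane family, had a step of 1.59 ± 0.34. Sult1e1 and Ifitm6 were each well above background on only 1 of the 2 arrays at 8 h. The endothelial adhesion gene Pecam1 (1.29 in Atm-/-, 1.05 in Atm+/+) and the matrix protease gene Mmp19 (1.32 in Atm-/-, 1.49 in Atm+/+) were in the same class. Cdh19, a cadherin of nerve sheath cells, had the largest estimate (3.74 ± 1.09, limma adjusted p = 0.163) because it read 0.90 on the Atm+/+ 24 h array. Its other 24 h reading was -3.49 in Atm-/- cells, against -5.16 in Atm-/- and -4.90 in Atm+/+ cells at 8 h.

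Late down were 23 probes, 1 of them noncoding, within 1.5-fold of 0 h at 8 h and at least 2-fold lower at 24 h, and none was called. Nmu, the gene of the peptide neuromedin U, read -5.25 in Atm-/- and -6.20 in Atm+/+ cells at 24 h, against -3.43 in Atm-/- and -4.76 in Atm+/+ cells at 8 h (step -1.63 ± 0.13, limma adjusted p = 0.0780). Wnt7a, an epithelial Wnt ligand gene, read -4.21 in Atm-/- and -7.45 in Atm+/+ cells at 24 h, against -2.84 in Atm-/- and -5.30 in Atm+/+ cells at 8 h. Nmu and Wnt7a were each well above background on only 1 of the 2 arrays at 24 h, so the sizes of their steps are uncertain. The cornified envelope gene Lce1i had a step of -1.25 ± 0.15. Krtdap, a keratinocyte gene, was not well above background at 24 h and was at least 1.496-fold lower. The odorant receptor gene Olfr907 had a step of -1.34 ± 0.16. The 8 epithelial markers kept had a median step of -0.41, with 0 called, 4 at an unadjusted p under 0.05 lower and 0 higher, and their part in the epithelial genes of this class was not tested.

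Some metal and oxidant defence genes read lower at 24 h. Mt2, a metallothionein that binds zinc, read 4.18 in Atm-/- and 4.55 in Atm+/+ cells at 24 h, against 5.82 in Atm-/- and 5.60 in Atm+/+ cells at 8 h (step -1.35 ± 0.19, limma adjusted p = 0.0882). Mt1 read 5.44 in Atm-/- and 5.42 in Atm+/+ cells at 24 h, against 6.56 in Atm-/- and 6.25 in Atm+/+ cells at 8 h. In the list of 8 zinc genes 3 had an unadjusted p under 0.05 lower, 1 higher and 0 were called. Of 26 Nrf2 targets, 5 had an unadjusted p under 0.05 lower and 0 higher, and 0 were called. Of all 13841 genes tested 13.2% were lower and 8.77% higher at that limma p, so no direction is given for these 2 lists. The glutathione transferase gene Gsta1 had a step of -1.25 ± 0.13, its close relative Gsta2 one of -1.33 ± 0.30 and the cystine carrier gene Slc7a11 one of -1.01 ± 0.14. Hmox1, haem oxygenase, read 2.71 in Atm-/- and 3.89 in Atm+/+ cells at 24 h, against 4.11 in Atm-/- and 2.26 in Atm+/+ cells at 8 h, lower in one genotype and higher in the other.

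Among 38 immediate-early and stress genes 0 were called, 13 had an unadjusted p under 0.05 lower and 1 higher, and the median step was -0.23. The phosphatase gene Dusp2 read -2.90 in Atm-/- and -4.28 in Atm+/+ cells at 24 h, against -1.72 in Atm-/- and -3.07 in Atm+/+ cells at 8 h (step -1.19 ± 0.12, limma adjusted p = 0.0780). Fosl1, a partner of JUN in AP-1, had a step of -1.06 ± 0.13. The early growth response gene Egr1 read 1.02 in Atm-/- and 1.05 in Atm+/+ cells at 24 h, against 0.09 in Atm-/- and 0.51 in Atm+/+ cells at 8 h. Genes of cholesterol synthesis and uptake had a median step of -0.40, with 8 of 22 tested at an unadjusted p under 0.05 lower, 1 higher and 0 called. That 1 was the sterol exporter gene Abca1 (0.83 ± 0.16), while the mevalonate kinase gene Mvk had a step of -0.60 ± 0.13.

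Only 8 probes of 7 genes were recovered, at least 2-fold down at 8 h from 0 h and at least 2-fold up from 8 h to 24 h, and 0 were noncoding. Palmd, described above, was the 1 that was called. Fgd2, which encodes an exchange factor for small GTPases, read -3.95 in Atm-/- and -4.07 in Atm+/+ cells at 24 h, against -6.69 in Atm-/- and -5.76 in Atm+/+ cells at 8 h, where it was not well above background. It was at least 3.73-fold higher (fitted step 2.22 ± 0.26, limma adjusted p = 0.0785), and its other probe had a step of 2.14. Arhgap15, which encodes a GTPase-activating protein, had a step of 1.46 ± 0.10 (limma adjusted p = 0.0539), and was well above background on only 1 of the 2 arrays at 8 h. The purine receptor gene P2ry12 (1.04 in Atm-/-, 1.88 in Atm+/+) was in the same class. The protocadherin gene Pcdh17 and the clock-related factor gene Hlf were not well above background at 8 h, and were at least 1.75-fold higher (Pcdh17) and at least 1.328-fold higher (Hlf) at 24 h.

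Noncoding transcripts, the subject of the series, followed the step about as often as all probes. Of 6711 tested, 1 was called (0.0149%), uc008wdi, which the filter kept through its 24 h arrays alone. Of 6460 with a value on all 4 arrays, 23 read at least 2-fold lower in both genotypes (0.356%) and 13 at least 2-fold higher (0.201%). Their median step was 0.00 in Atm-/- and -0.03 in Atm+/+ cells. By the type in the deposited table, 6 of 911 antisense, 11 of 3081 sense-overlapping, 2 of 773 bidirectional, 1 of 574 intergenic and 1 of 949 other transcripts were 2-fold lower in both genotypes, and the remaining ones had no such single type. Beside AK036493, the antisense uc008ool read -6.19 in Atm-/- and -6.47 in Atm+/+ cells at 24 h, not well above background, against -4.41 in Atm-/- and -3.48 in Atm+/+ cells at 8 h, at least 3.81-fold lower (limma adjusted p = 0.1003). The bidirectional uc007pjf, the 1 noncoding late down probe, read -4.74 in Atm-/- and -4.65 in Atm+/+ cells at 24 h, against -3.27 in Atm-/- and -3.31 in Atm+/+ cells at 8 h (limma adjusted p = 0.0641). NR_003564, also bidirectional, read -0.02 in Atm-/- and -0.13 in Atm+/+ cells at 24 h, against -1.28 in Atm-/- and -1.80 in Atm+/+ cells at 8 h. For sense-overlapping transcripts the probe may also read the gene they overlap.

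Some large noncoding estimates rest on single arrays. The antisense uc008dmp had the largest negative estimate, -4.93 ± 2.08, because it read 2.94 on the Atm-/- 8 h array. On the other 7 arrays it read between -6.37 and -4.98. AK047541 read -3.60 in Atm-/- and -3.55 in Atm+/+ cells at 24 h, against -8.28 in Atm-/- and -7.32 in Atm+/+ cells at 8 h, not well above background. Its Atm-/- readings at 0 h and 4 h were -7.08 and -7.83, and its Atm+/+ readings -3.07 and -3.15. So in Atm-/- cells the 24 h array alone read high, and in Atm+/+ cells the 8 h array alone read low.

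The difference of the step between genotypes asks whether the return depends on Atm. Of 22934 probes tested 0 were called (0.0%), and the smallest limma adjusted p was 0.167. An unadjusted limma p under 0.05 was reached by 3281 probes, where 1147 would be expected if no step differed. The fit has 2 residual degrees of freedom, and a p that misses the threshold does not show that the genotypes behaved alike. In single genotypes, 401 probes in Atm-/- and 558 in Atm+/+ cells read at least 2-fold lower at 24 h, and 703 in Atm-/- and 448 in Atm+/+ cells at least 2-fold higher. In 106 probes the step was at least 2-fold in both genotypes and in opposite directions, as it was for Hmox1. Across 21706 probes Pearson's r between the steps was 0.147, given as a description since the probes of an array are not independent.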

How the data were processed

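RNA of 8 MEF cultures was hybridised to 1-colour Agilent arrays with coding and noncoding probes, 1 array for each genotype and time. Per the file headers, the authors' scanner software (Feature Extraction 10.5.1.1) gave background-subtracted intensity values, with spots placed on build mm9. The deposited log2 table of noncoding probes was the log2 processed signal minus 1 constant per array (7.21 to 7.47), and the deposited value table repeated the processed intensity. Here log2 of the processed signal was taken, the spots of a probe were averaged, and each array was scaled to its 75th percentile. A probe's value was then left out where all its spots on that array were marked as outliers. A probe was kept where 2 or more arrays had it well above background (23297 of 37246), and 23134 could be fitted.

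A model with genotype and time as terms was fitted across all kept probes of all 8 arrays in limma 3.58.1 (R 4.3.3), with 3 residual degrees of freedom and Benjamini-Hochberg adjustment. Genotype was the pairing term of the step. The difference between genotypes was 1 term added to this model, the step in Atm-/- cells minus that in Atm+/+ cells. The fit was tested on simulated data with 21556 probes, where it called 42% of probes changed by 1 log2 unit and 96% of those changed by 4 log2 units, with 9 false calls. The simulated errors were normal and independent, with spreads shuffled across probes and no missing values. The real arrays differ in these respects, so the shares need not hold for them. An "at least" fold sets the bright time's mean against the higher, per array, of the dim probe's own signal and the lowest signal among probes well above background.

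Symbols came from RefSeq by accession (16402 kept probes, 13958 genes) with the probe of highest mean level for each gene. The 27 lists hold 740 genes, of which 736 matched RefSeq. The arrays, lists and members were chosen with earlier results of these data known. Named genes were drawn from called genes, the largest steps in both genotypes, the first 5 of each time-course class, both ends of the probes raised at 4 h, and the largest steps of each list. Some that meet this rule are not described, among them Uchl4, Mansc4, Il21r, Slc13a3 and Tmem120b. Brca1, C3, Ccl12, Ccl8, Cdc20, Cdt1, Csf3, Hlf, Hmox1, Il18, Il1rn, Il33, Krtdap, Mad2l1, Mmp19, Mvk, Nfkbia, Nlrp3, Nod2, Nos2, Oasl2, P2ry12, Plk1, Rela, Rsad2, Sprr2e, Sprr2g, Tlr2 and Tnfaip3 fall outside this rule and were chosen after their values were seen. The motif letters were chosen after the windows had been seen. Tables and figures used Python 3.11.15, pandas 2.3.3, numpy 2.4.6 and matplotlib 3.10.9. The number of arrays limits the precision. Other scalings, background correction, filters, outlier handling, variance priors and arrays left out were tried.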

Additional observations from a re-analysis of the deposited data

Results flagged for a closer look

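Some steps from 8 h to 24 h had opposite signs in the genotypes, each with 1 array per time. For lists the difference was not tested. The median step of core histones was 0.025 in Atm-/- and -0.006 in Atm+/+ cells. For TGF-beta, BMP and IGF signalling it was -0.04 in Atm-/- and 0.068 in Atm+/+ cells. Named long noncoding RNAs had a median of 0.076 in Atm-/- and -0.133 in Atm+/+ cells, nerve markers one of -0.104 in Atm-/- and 0.124 in Atm+/+ cells, and bone, cartilage and fat markers one of -0.25 in Atm-/- and 0.038 in Atm+/+ cells.

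For single genes the difference was a term of the limma fit across all probes, and 0 of 22934 probes were called. The step of Hmox1, haem oxygenase, was -1.399 in Atm-/- and 1.63 in Atm+/+ cells (limma adjusted p of the difference 0.316). The antiviral gene Rsad2 had a step of -1.714 in Atm-/- and 0.5 in Atm+/+ cells (limma adjusted p = 0.245). For Atm the step was 0.528 in Atm-/- and -0.485 in Atm+/+ cells (limma adjusted p = 0.236), and for the scavenger receptor gene Marco it was 0.081 in Atm-/- and -0.097 in Atm+/+ cells (limma adjusted p = 0.710). Kcnq1ot1, a noncoding RNA of an imprinted region, had a step of 0.169 in Atm-/- and -5.845 in Atm+/+ cells (limma adjusted p = 0.278). Its level was -1.97 in Atm-/- and -7.51 in Atm+/+ cells at 24 h, against -2.14 in Atm-/- and -1.67 in Atm+/+ cells at 8 h, so the Atm+/+ 24 h array alone read low.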

How the results depend on the processing

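The 6 calls, 1 of them noncoding, depended on the processing. All 6 were kept under median scaling (6 calls), quantile normalization (7), normexp background (59, with 10 noncoding), outlier spots kept in (12, with 2 noncoding) and an intensity trend with a robust prior (575, with 87 noncoding). Probes well above background on all 4 arrays gave 106 calls, with 17 noncoding and 5 of the 6 kept. Outlier spots removed before scaling gave 5, with 4 of the 6 kept. That setting moved the median step of all probes to 0.133, against -0.033, and steps under it are read relative to that shift. No filter gave 0 calls of all and 0 of noncoding probes by limma, with 4533 at an unadjusted p under 0.05, and so did the 4 arrays of the step alone, with 1957. Leaving out 1 array at a time gave 0 to 1 calls, and 0 to 0 among noncoding probes. An adjusted p under 0.1, chosen after seeing the data, gave 469 calls, with 108 noncoding. The difference between genotypes had 0 calls in all 7 alternatives. Probes 2-fold lower in both genotypes numbered 84, against 416 at 1.5-fold, 49 with signal well above background on all 8 arrays, 35 with normexp and 55 with outliers removed first. Those 2-fold higher numbered 61, against 323, 30, 15 and 96 in the same settings. Transient probes (38) became 98 at 1.5-fold, 19 on all 8 arrays and 24 with normexp, and sustained ones (30) became 15 with normexp. Late up probes (20) became 96 at 1.5-fold, 8 with normexp and 38 with outliers removed first, and late down probes (23) became 166, 2 and 8. Recovered probes (8) became 42 at 1.5-fold, 2 on all 8 arrays, 4 with median scaling, 2 with quantile normalization and 0 with normexp. The share of early probes that were 2-fold lower, 41.4%, was 19.6% with Atm-/- arrays and 22.4% with Atm+/+ arrays alone, both chosen after seeing the data. Signs changed for Marco (0.084 quantile, 0.045 normexp, 0.166 outliers removed first), Atm (-0.011 median, -0.007 quantile) and Mad2l1 (0.04, outliers removed first). They also changed on leaving out 1 array, with ranges of -0.123 to 0.107 for Marco, -0.328 to 0.372 for Atm, -0.007 to 0.326 for uc008cke, -0.372 to 1.535 for Steap4, -1.314 to 1.545 for Hmox1, -0.097 to 1.328 for uc009heo and -1.57 to 0.356 for Rsad2. The sign change came without the Atm+/+ 24 h array for uc008cke, Steap4 and Hmox1, without the Atm-/- 24 h array for uc009heo and Rsad2, and without the Atm+/+ 8 h array for Hmox1 (-0.474) and Marco, and Atm reversed without Atm-/- 8 h (-0.303) or 24 h. Leaving out 1 array also moved by over 1.5 times the steps of C1s1, C3, Cdh19, Egr1, Gbp6, Gsta2, Hp, Ifit1, Ifit3, Il33, Lcn2, Ndufa4l2, Nos2, Tgfb2, Tug1 and others that were not called. The causes were not tested. Over 17 settings the list medians ran from -0.865 to -0.571 for G2 and mitosis, -0.737 to -0.531 for NF-kB genes, -1.089 to -0.607 for chemokines and 0.358 to 0.583 for interferon-stimulated genes. Genotype pairs the 24 h and 8 h arrays in each fit of the step, and no block by replicate number was added, since the labels give none.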

Other observations

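Ribosomal protein genes, among the brightest probes, had a median step of -0.35 in Atm-/- and -0.12 in Atm+/+ cells. Of 41 kept, 0 were called, 8 had an unadjusted limma p under 0.05 lower at 24 h and 0 higher. Over all genes tested 13.2% were lower and 8.77% higher at that limma p, the background for this list and the next. Rps10, of the small subunit, read 6.79 in Atm-/- and 7.06 in Atm+/+ cells at 24 h, against 7.49 in Atm-/- and 7.36 in Atm+/+ cells at 8 h. Rpl32, of the large subunit, had a step of -0.47 ± 0.14. Of 25 integrated stress response genes tested, 6 had an unadjusted p under 0.05 lower, 2 higher and 0 were called, and Shmt2, a mitochondrial enzyme of serine use, had a step of -0.49 ± 0.11.

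Of 46 core histone genes kept, which encode the proteins that pack DNA, 0 were called. Of the 44 with a value on all 4 arrays 12 read lower and 12 higher in both genotypes, beside 4501 lower and 3195 higher of all 12862 genes. H2ac11 read -3.63 in Atm-/- and -2.85 in Atm+/+ cells at 24 h, against -2.72 in Atm-/- and -1.64 in Atm+/+ cells at 8 h (step -1.07 ± 0.12, limma adjusted p = 0.0785). H3c10 had a step of -0.80 ± 0.12 and H2bc6 one of 0.75 ± 0.26. Core histone genes are close copies, so their probes may share signal. The variant H2az1 had a step of -0.53 ± 0.10, and H2ax, which is phosphorylated at DNA breaks, one of -0.70 ± 0.13 with its Atm+/+ 24 h value left out.

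Muscle markers read lower at 24 h in 5 of the 5 with a value on all 4 arrays, in both genotypes, with 0 called. Tnnt2, cardiac troponin T, had a step of -0.68 ± 0.12 and the muscle regulator gene Myod1 one of -0.55 ± 0.15. Of 5 endothelial markers kept, Kdr (-0.65 ± 0.12) and Cdh5 (-0.53 ± 0.11) read lower in both genotypes while Pecam1 read higher, and 0 were called. Among 29 TGF-beta, BMP and IGF signalling genes 0 were called, and Tgfb2 read -0.995 in Atm-/- and -2.64 in Atm+/+ cells at 24 h, against -2.50 in Atm-/- and -2.71 in Atm+/+ cells at 8 h. Cartilage genes Acan (-1.16 ± 0.43) and Col2a1 (-0.49 ± 0.15) and the fat cell gene Fabp4 (0.55 ± 0.19) were not called. Acan had a step of -0.527 without the Atm+/+ 8 h array, and Fabp4 one of 0.251 without the Atm-/- 24 h array. Of 17 named long noncoding RNAs 0 were called, and Tug1 read 1.01 in Atm-/- and 0.95 in Atm+/+ cells at 24 h, against 0.23 in Atm-/- and 0.67 in Atm+/+ cells at 8 h.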
